A study of Mus musculus with 8 samples.

Results

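The genes described are 39 mouse imprinted genes, chosen by name from the genes known to be expressed mainly from the chromosome inherited from the father (23 genes), from that of the mother (15 genes), or from either depending on the transcript (Gnas, 1 gene). Probes were found for 34 of them, 55 probes in all, among the 16593 genes named on the array, while Kcnq1ot1, Copg2, Rian, Zrsr1 and Zdbf2 had no probe under their names or older names. A gene was tested where a probe stood above the array's negative controls (a detection p below 0.01) on at least 2 of the 8 arrays, and 22 of the 39 did, 12 paternally expressed, 9 maternally expressed and Gnas.

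The RNA came from 8 mouse embryonic stem cell lines, the cultured, pluripotent descendants of the early embryo. Nuclear transfer replaces the chromosomes of an egg with the nucleus of a body cell, and the title of the series concerns a pair of such nuclei in the same egg cytoplasm. The 6 tNT lines are labelled as tetraploid, and the 2 NT lines, also from nuclear transfer, as not tetraploid. All 8 lines carry the label mixed strain and a double sedimentation, a term the labels do not explain, and no genotype or donor cell type is given. The design text lists the numbers 17, 19, 25, 29, 18 and 25 for tNT lines 1 to 6, read here as passage, the count of times a culture was split, and none for the NT lines. Each line is 1 array, and nothing says whether lines came from separate animals, so the p-values reflect line-to-line spread alone, and 6 against 2 arrays limit the precision.

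Imprinting marks a gene, through DNA methylation laid down in the egg or sperm, so that only the copy from 1 parent is transcribed. The marks sit at imprinting control regions, survive the wave of demethylation after fertilization, and are read by proteins such as ZFP57 with TRIM28. Loss of a mark can silence a gene or switch on its silent copy, and in cultured embryonic stem cells and in cloned embryos such changes are known for several imprinted genes. An array measures the total transcript of a gene and cannot tell the parental copies apart, so none of the values below says which copy was transcribed. In bulk RNA of this kind, fewer cells of a type and less RNA per cell cannot be told apart.

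Promoters are shown of Igf2 and Peg3, the genes that passed the comparison below, and of Mest, which stood apart in tNT line 2. They are shown for the density of CG dinucleotides, the bases that imprinting methylates. The promoters were not chosen as imprinting control regions, and whether they lie in such regions was not examined. Each window is the 250 bases before an annotated RefSeq transcription start (GRCm38.p6), written from 5′ to 3′ on the strand of the gene. Capitals mark CG dinucleotides and the hexamer TGCCGC, known as the core of the ZFP57 binding site, which itself contains a CG, searched on both strands (GCGGCA on the other). The Igf2 window is the most CG-rich of its 4 and lies on the minus strand at chr7:142658805-142659054, that of Peg3 is on the minus strand at chr7:6730420-6730669, and that of Mest is on the plus strand at chr6:30737800-30738049.
Igf2: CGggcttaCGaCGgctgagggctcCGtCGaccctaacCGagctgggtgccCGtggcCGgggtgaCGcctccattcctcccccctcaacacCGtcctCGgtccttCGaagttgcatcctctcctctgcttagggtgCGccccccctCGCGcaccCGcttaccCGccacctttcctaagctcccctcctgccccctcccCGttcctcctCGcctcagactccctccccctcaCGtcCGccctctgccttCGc
Peg3: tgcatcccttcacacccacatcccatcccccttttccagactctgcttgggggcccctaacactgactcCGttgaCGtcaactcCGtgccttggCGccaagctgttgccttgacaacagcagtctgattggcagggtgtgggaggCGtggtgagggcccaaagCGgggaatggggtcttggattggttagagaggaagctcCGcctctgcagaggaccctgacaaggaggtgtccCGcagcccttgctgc
Mest: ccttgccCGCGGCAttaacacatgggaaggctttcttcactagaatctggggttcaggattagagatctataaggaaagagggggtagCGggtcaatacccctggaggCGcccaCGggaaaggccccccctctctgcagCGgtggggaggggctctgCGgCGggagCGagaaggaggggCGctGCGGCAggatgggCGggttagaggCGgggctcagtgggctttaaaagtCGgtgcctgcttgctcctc
The Igf2 window holds 22 CG dinucleotides, a number that 14.8% of 32851 windows reach, that of Mest 14 (29.4%) and that of Peg3 8 (43.0%). The other Igf2 windows hold 10, 6 and 1. The hexamer occurs at 2 places in the Mest window and in none of the Igf2 windows or the Peg3 window. Windows were found for 34 of the 39 genes, 54 windows in all. Of these, 9 (16.7%), from 8 genes, contain the hexamer, against 8.68% of all windows. Windows of 1 gene can overlap, as 2 of Mest with the hexamer do. The windows of these genes held a median of 11 CG dinucleotides, against 6 in all windows. The hexamer contains a CG, and the shares were not matched for this. A match describes the letters only, and methylation was not measured.

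Between 10449 and 10969 probes were above background on an array. The tNT line 2 correlated with the other tNT lines by 0.973 on average over the 8816 genes tested, and the other 5 tNT lines by 0.981 to 0.984. It had the highest tNT value in 26.8% of those genes and the lowest in 26.2%, where no other tNT line exceeded 19.3% or 17.3%. Results are therefore given with and without it where it bears on them.

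Tetraploid lines were compared with NT lines with limma, with p-values adjusted over all genes tested. Only Igf2 and Peg3, both paternally expressed and both lower in tNT lines, passed an adjusted p of 0.05. These 2 of 22 tested genes stand beside 1.86% of all genes called in either direction, 0.964% lower and 0.896% higher. Peg3 was detected in 1 of 6 tNT lines and entered the test through the NT lines, where it was high, so its share of that count is no support, and Igf2 is the called gene detected on all arrays. At an unadjusted p below 0.05 there were 9 of 22, 4 higher and 5 lower in tNT lines, against 18% of all genes (9.36% higher, 8.60% lower). The tNT and NT values did not overlap in 7 of 22 genes, 3 higher and 4 lower, against 21.7% of all genes (11.3% higher, 10.4% lower). Peg3 is among the lower genes in both of these counts, and its share of them is no support either.

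Igf2 encodes a secreted growth factor that drives fetal growth. Its normalized log2 intensity ranged in tNT lines from 7.68 in line 3 through a median of 8.03 to 8.60 in line 2, and was 9.67 and 9.41 in the NT lines. Every tNT line lay below both NT lines. The mean was 8.11 ± 0.33 (SD, n = 6) against 9.54 ± 0.19 (SD, n = 2), a difference of -1.43 (95% confidence interval -1.93 to -0.93), or 2.69-fold lower (limma, adjusted p = 0.0174). Without NT line 1 or NT line 2 the difference was -1.30 and -1.56 and did not pass (limma, adjusted p = 0.239 and 0.167). In those fits the NT arm is 1 array and the tNT lines alone give the spread, and calls over all genes went from 164 to 6 and 7. No tNT line ended the call when left out alone.

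Peg3 encodes a large zinc finger protein, a DNA-binding regulator active in the embryo, placenta and brain. It ranged in tNT lines from 4.63 in line 3 through a median of 5.07 to 5.42 in line 2, and was 6.69 and 5.85 in the NT lines. The groups did not overlap, but the probe was above background only in tNT line 2 and both NT lines, so that it entered the test through the lines where it was high and most tNT values lie at the background. The means were 5.07 ± 0.28 (SD, n = 6) and 6.27 ± 0.59 (SD, n = 2), a difference of -1.20 (limma, adjusted p = 0.0436). Its size depends on how the background is handled, at -0.47 without background correction and -1.88 in the authors' processed values, neither of which passed. The call ended when tNT line 1, 3, 4, 5 or 6 was left out (limma, adjusted p = 0.0800, 0.0584, 0.0806, 0.0704 and 0.0877) and held without tNT line 2 (adjusted p = 0.0205). Without NT line 1 or 2 the difference was -0.78 and -1.62 (limma, adjusted p = 0.405 and 0.107), with the same limit of 1 NT array.

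**Figure D1:**
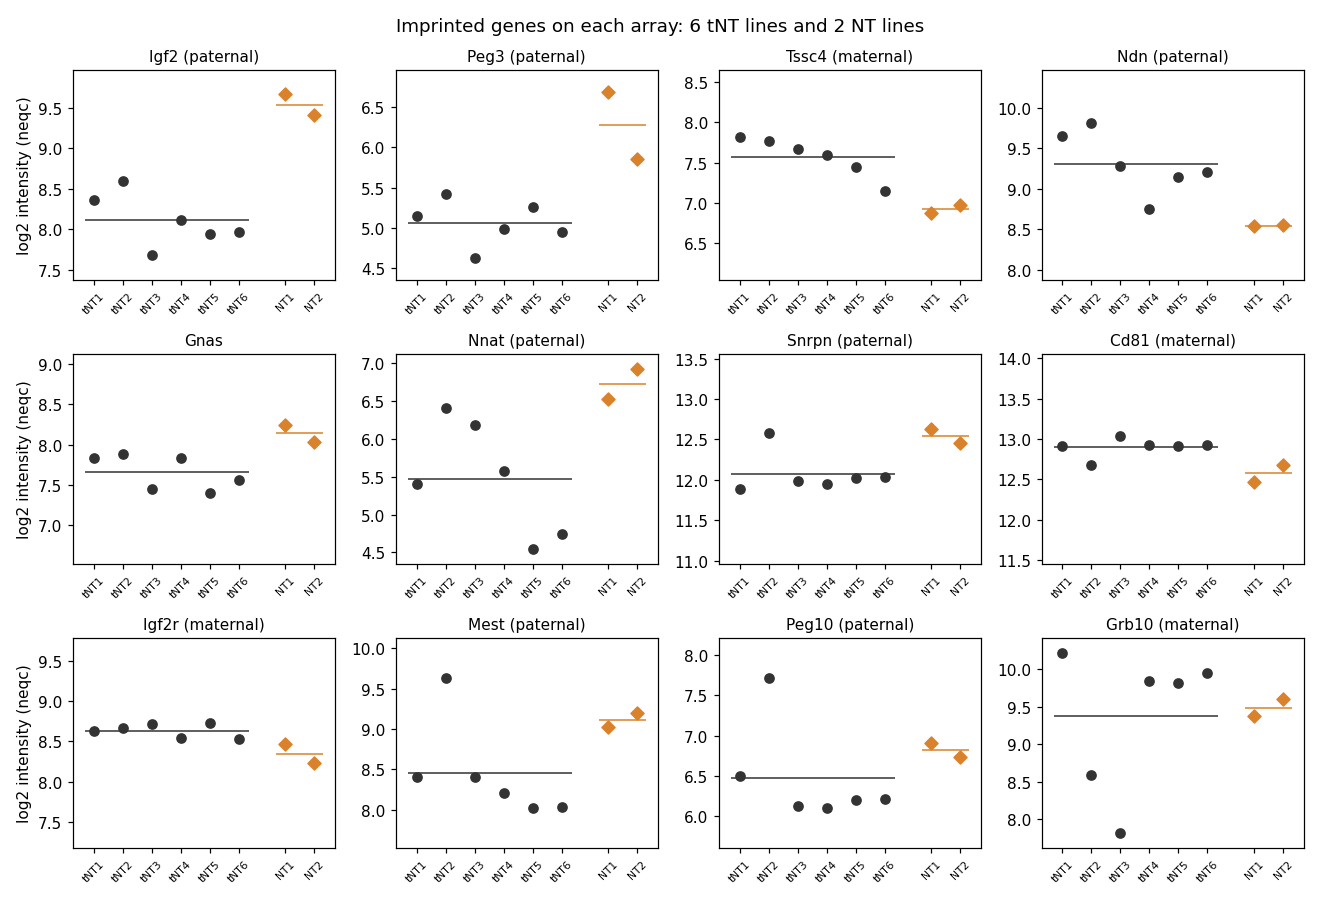
Normalized log2 intensity (vertical axis, a different range in each panel but the same span where values allow) of 12 imprinted genes on each of the 8 arrays (horizontal axis, tNT lines 1 to 6 as black circles, NT lines as orange diamonds); horizontal lines are group means. Igf2 and Peg3 lie lower in all 6 tNT lines than in both NT lines, and Mest, Peg10 and Snrpn stand high in tNT line 2 alone among tNT lines.

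Nnat, Snrpn, Mest, Peg10 and Dio3 had lower means in tNT lines without passing the adjusted threshold, and are paternally expressed like Igf2 and Peg3. Nnat encodes neuronatin, a small membrane protein of the endoplasmic reticulum. It ranged from 4.55 in tNT line 5 through a median of 5.49 to 6.40 in line 2, and was 6.52 and 6.92 in NT lines, with no overlap. The difference was -1.25 (interval -2.26 to -0.23, limma, adjusted p = 0.185), and lines 5 and 6 were not above background. Without line 2 the difference was -1.43 and did not pass either (limma, adjusted p = 0.0705). The second Nnat probe was above background on no array.

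Snrpn encodes a spliceosomal protein and lies in the domain whose human counterpart is lost in Prader-Willi syndrome. It ranged from 11.89 in tNT line 1 through a median of 12.01 to 12.58 in line 2, against 12.63 and 12.46 in NT lines. Line 2 lay between the NT lines, and the other tNT lines lay between 11.89 and 12.03. The difference was -0.47 (limma, adjusted p = 0.208), and without line 2 it was -0.57 and passed (limma, adjusted p = 0.0186). For Snrpn line 2 was the tNT line farthest from the others, so leaving it out narrows their spread. Calls over all genes went from 164 to 582 in that fit, so the pass is not particular to Snrpn. A second, dimmer probe also gave -0.47.

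Mest encodes an enzyme of the hydrolase fold located in the endoplasmic reticulum. It was 8.02 at the lowest in tNT line 5, 8.30 at the median and 9.63 in line 2, against 9.02 and 9.20 in the NT lines. Line 2 exceeded both NT lines, and the other 5 tNT lines, at 8.02 to 8.41, lay below them. The difference of -0.66 did not pass (limma, adjusted p = 0.396), and without line 2 it was -0.90 and did (limma, adjusted p = 0.0152). That line stood farthest from the others here too, and the rise from 164 to 582 calls over all genes limits this pass as well. All 3 probes of the gene placed line 2 highest of the 8 arrays, with differences between the groups of -0.66, -0.71 and -0.45.

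Peg10, a gene derived from a retrotransposon and required for the placenta, was also highest in line 2. It ranged from 6.10 in tNT line 4 through a median of 6.21 to 7.72 in line 2, with 6.91 and 6.74 in NT lines. Without line 2, the other tNT lines spanned 6.10 to 6.50, below both NT lines. The difference was -0.34 with line 2 (limma, adjusted p = 0.695) and -0.59 without it (limma, adjusted p = 0.0370). As for Snrpn and Mest, the fit without this farthest line called 582 genes over all genes, against 164 with it.

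The Dlk1-Dio3 domain was measured through its paternally expressed ends only. Dlk1, a membrane protein related to Notch ligands, ranged from 5.30 in tNT line 3 through a median of 5.79 to 6.23 in line 2, and was 5.34 and 5.49 in the NT lines. The groups overlapped, and 4 of the 6 tNT arrays and both NT arrays were above background (difference 0.33, limma, adjusted p = 0.541). Dio3, which inactivates thyroid hormone, ranged from 5.74 in line 4 through 6.23 to 6.61 in line 3, with 6.67 and 6.54 in NT lines (difference -0.42, limma, adjusted p = 0.345). Rtl1 was not above background on any array. The maternally expressed Rian had no probe, and neither had Meg3 and Mirg, so the maternally expressed transcripts of the domain were not measured.

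Ndn lies in the same domain as Snrpn and had higher means in tNT lines. Necdin, its product, is a MAGE family protein that restrains cell proliferation. Ndn ranged from 8.75 in tNT line 4 through a median of 9.24 to 9.81 in line 2, against 8.54 and 8.55 in NT lines. All tNT values were higher, and the difference of 0.76 (interval 0.21 to 1.30) did not pass (limma, adjusted p = 0.138). Mkrn3 in the same domain, a RING finger protein, differed by 0.25, and Magel2 and Peg12 were at background.

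Slc38a4, an amino acid transporter, and Impact, a regulator of the Gcn2 stress kinase, complete the tested paternally expressed genes. They differed by -0.20 and -0.04, with tNT values of 6.06 to 6.50 and 10.53 to 10.98. Over the 12 tested paternally expressed genes 9 had lower and 3 higher means in tNT lines, with a median difference of -0.38, while all genes had a median of 0.01 and 4331 of 8816 lower. Restricted to the 9 above background on all 8 arrays, the median was -0.34. These counts describe the genes and carry no test.

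None of the 9 tested maternally expressed genes passed, and 3 of them were higher in tNT lines at an unadjusted p below 0.05 in limma, Tssc4, Cd81 and Igf2r, beside 9.36% of all genes. Tssc4, known in human cells as a factor of spliceosome assembly and imprinted in the mouse in the placenta, ranged from 7.15 in tNT line 6 through a median of 7.63 to 7.82 in line 1, with 6.88 and 6.97 in NT lines. All tNT lines were higher, by 0.65 on average (interval 0.25 to 1.05; limma, adjusted p = 0.0979). A second, dimmer probe of the gene differed by 0.21 with overlapping groups, so the probes disagree on the separation.

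Cd81, a tetraspanin membrane protein of the same domain, ranged from 12.68 in tNT line 2 through a median of 12.93 to 13.04 in line 3, with 12.47 and 12.68 in NT lines. Line 2 reached the upper NT line, and the other tNT lines lay above both (difference 0.33, limma, adjusted p = 0.213). Without line 2 the difference was 0.37 and did not pass either (limma, adjusted p = 0.0732). Igf2r, the receptor that clears Igf2 by carrying it to lysosomes, ranged from 8.53 in line 6 through 8.64 to 8.73 in line 5, with 8.47 and 8.23 in NT lines. Its difference was 0.28 without overlap (interval 0.02 to 0.55, limma, adjusted p = 0.249). A second probe gave 0.19 with overlapping groups, at 8.35 to 8.68 in tNT lines and 8.26 and 8.38 in NT lines. The spread of the first Igf2r probe over the tNT lines, an SD of 0.09, was among the smallest on the array, with 4.85% of all genes below it. The second probe had a wider range over these lines and placed line 6 highest, so the small spread rests on the probe.

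**Figure D2:**
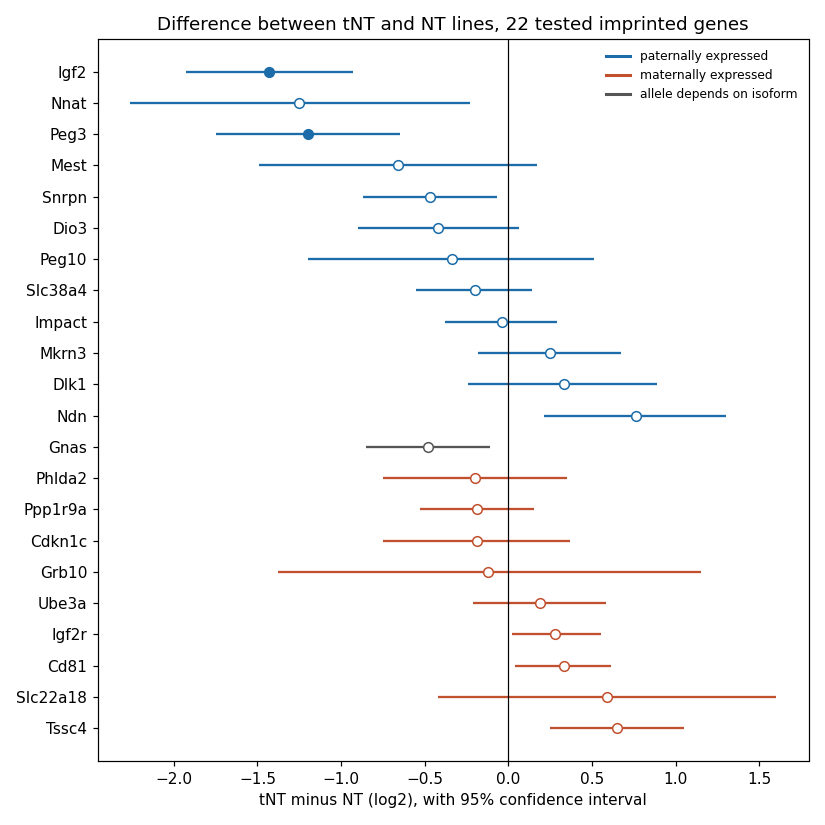
Difference in normalized log2 intensity between tNT and NT lines (horizontal axis, tNT minus NT) for the 22 tested imprinted genes, as the limma estimate with its 95% confidence interval; blue is paternally and red maternally expressed, grey is Gnas, and filled circles have an adjusted p below 0.05. Igf2 at -1.43 and Peg3 at -1.20 are the filled circles, and the largest positive difference is 0.76 for Ndn.

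Slc22a18, a transporter of the same distal chromosome 7 domain, varied more between tNT lines than between groups. It ranged from 4.89 in tNT line 2, the one tNT line where it was not above background, through a median of 6.34 to 6.80 in line 4, with 5.34 and 5.77 in NT lines. The difference was 0.59 (interval -0.42 to 1.60, limma, adjusted p = 0.543). Without line 2 it was 0.84 and did not pass either (limma, adjusted p = 0.118). Cdkn1c, an inhibitor of cyclin-dependent kinases, and Phlda2, which restrains placental growth, differed by -0.19 and -0.20 with overlapping groups. Both were highest in tNT line 2, at 8.77 and 11.48. In the domain that holds Igf2, 6 of 8 genes were tested, and 3 had higher and 3 lower means in tNT lines.

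Ube3a, a ubiquitin ligase imprinted in neurons, and Ppp1r9a, the actin-binding protein neurabin, differed by 0.19 and -0.19. The second detected probe of Ube3a gave -0.21, so its direction rests on the probe. Over the 9 tested maternally expressed genes 5 had higher and 4 lower means in tNT lines, with a median of 0.19, and with the 8 above background on every array the median was 0.04. Gnas, whose coding transcript makes the stimulatory G protein alpha subunit and whose other transcripts are imprinted in opposite ways, ranged from 7.40 in tNT line 5 through 7.70 to 7.88 in line 2, against 8.25 and 8.03 in NT lines. It was lower in all tNT lines (difference -0.48, limma, adjusted p = 0.167), a second probe gave -0.41, and 2 probes of its other transcripts were at background.

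**Figure D3:**
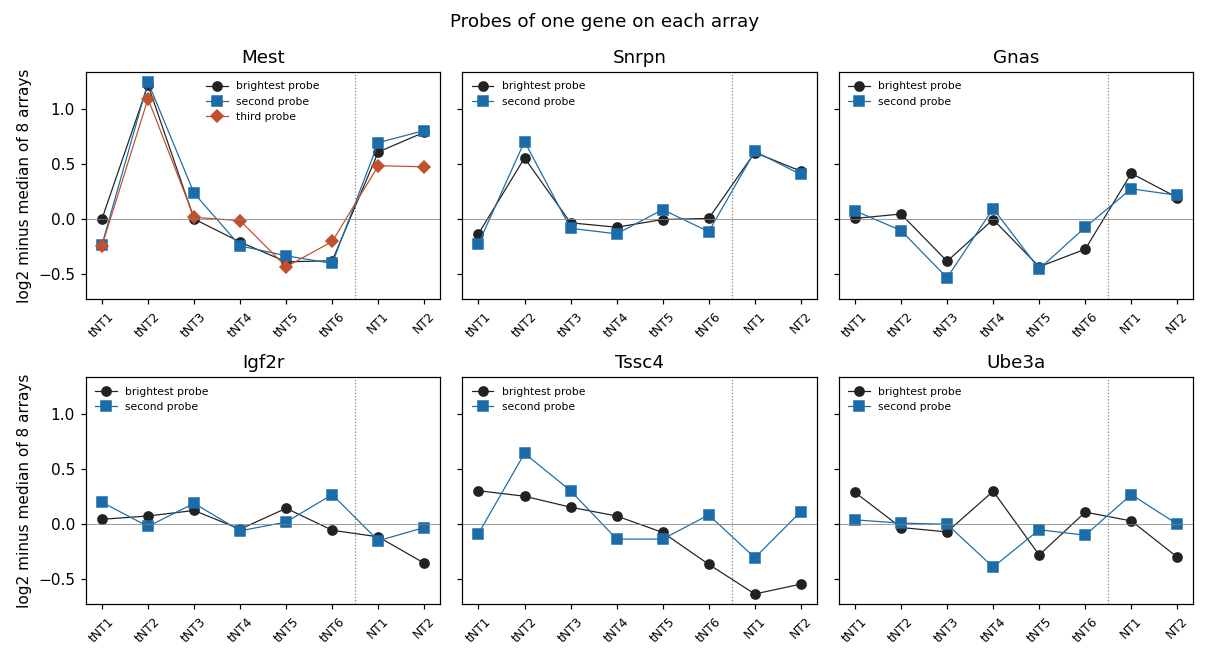
Log2 intensity minus the 8-array median (vertical axis) of each detected probe on each array (horizontal axis) for the 6 imprinted genes with more than 1 detected probe. The 3 Mest probes, the 2 Snrpn probes and the 2 Gnas probes follow each other, and those of Tssc4, Ube3a and Igf2r do not.

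The SD over the 6 tNT lines had a median of 0.30 in the 22 tested genes and 0.22 in all genes. Above the 95th percentile of all genes, an SD of 0.51, were 5 of them, Grb10, Nnat, Slc22a18, Peg10 and Mest. For Mest and Peg10 this rests on line 2, as the other tNT lines spanned 8.02 to 8.41 and 6.10 to 6.50. Without line 2 the tNT values spanned 4.55 to 6.18 for Nnat, 5.73 to 6.80 for Slc22a18 and 7.82 to 10.21 for Grb10. Lines are single arrays, so no line was tested against another.

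Grb10 encodes an adaptor that dampens insulin and Igf receptor signalling and is known for restraining fetal growth from its maternal copy. Its SD of 0.94 exceeded that of 99.6% of all genes. It was 7.82 in tNT line 3 and 8.59 in line 2, and between 9.81 and 10.21 in tNT lines 1, 4, 5 and 6, while the NT lines had 9.37 and 9.60. Lines 3 and 1 differed 5.23-fold, and both groups overlapped around a difference of -0.12 (interval -1.38 to 1.15; limma, adjusted p = 0.941). It has 1 probe, so no second measurement on the array bears on it.

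The tNT line 2 had the highest value among tNT lines in 12 of the 22 tested genes, beside 26.8% of all genes. In 4 of the 22, a tNT line, line 2 each time, stood far from the other 5 by Dixon's ratio, as did a line in 7.59% of all genes. Of the 12 genes highest in line 2, 9 are paternally expressed, and Cdkn1c, Phlda2 and Gnas are the others. The mean deviation of the 12 paternally expressed genes from their 8-array medians was 0.50 in line 2 and between -0.24 and -0.01 in the other tNT lines. In the NT lines it was 0.39 and 0.33, with Peg3, which entered the test through those lines, at 1.48 and 0.64. For the 9 maternally expressed genes the mean deviation was between -0.13 and 0.12 in tNT lines, and -0.22 and -0.10 in NT lines. Mest and Peg10 lie on chromosome 6, where the median deviation of 398 tested genes in line 2 was 0.14, against 1.22 for Mest. That of chromosome 7, which holds Igf2, Peg3 and Snrpn, was 0.03 over 666 genes. For chromosome 2, which holds Nnat and Gnas, the median deviation in line 2 was -0.18 over 648 genes. Both genes were highest in line 2 among tNT lines.

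**Figure D4:**
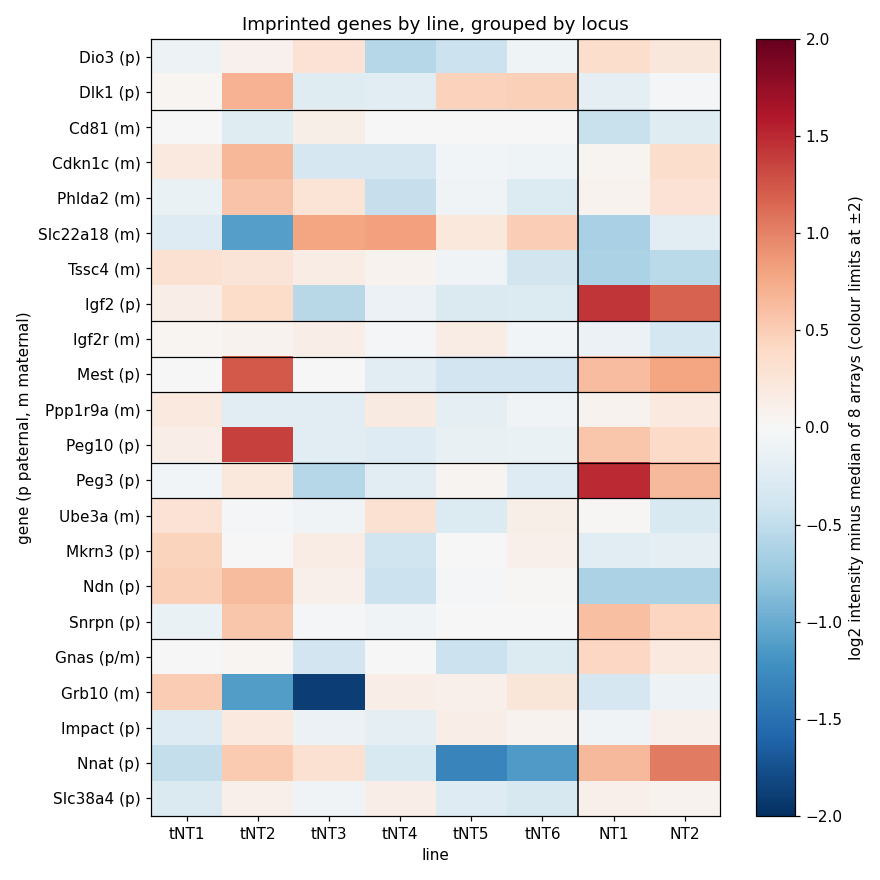
Normalized log2 intensity minus the 8-array median (colour, limits at 2 either way) of the 22 tested imprinted genes (vertical axis, p paternally and m maternally expressed, horizontal lines between loci) in each line (horizontal axis). Mest and Peg10 are red in tNT line 2, Grb10 is blue in lines 2 and 3, and Igf2 and Peg3 are red in both NT lines.

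Within the tNT lines a slope over passage, from 17 to 29, was fitted with limma. No imprinted gene was called, and neither was any of the 8816 genes (0%), with a smallest adjusted p of 0.994. At an unadjusted p below 0.05 there were 2 of 22, against 4.44% of all genes. Slc22a18 had a slope of 0.11 per passage on the log2 scale and Ndn one of -0.06 (limma, adjusted p = 0.994 for both), the smallest p in each direction. Slopes were negative in 16 of 22, and in 4483 of all 8816 genes.

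The remaining 12 genes with a probe were not above background on 2 arrays, and none was above background on any array. They are Osbpl5, Usp29, Zim1, Rtl1, Magel2, Peg12, Sgce, Asb4, Calcr, Plagl1, Mcts2 and Rasgrf1, of which 8 are paternally and 4 maternally expressed. Their probes lay between 4.28 and 5.21, the level of the array's background, and no direction is given for them.

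Genes around imprinting were read from 3 lists of non-members. In the Igf2 pathway 12 of 19 genes were tested. Igfbp3, a binding protein that holds Igfs in the extracellular space, alone passed, beside 1.86% of all genes. It ranged from 6.42 to 7.01 in tNT lines and was 8.08 and 8.27 in NT lines, 2.74-fold lower (limma, adjusted p = 0.00505). The Igf1 receptor Igf1r, through which Igf2 signals, differed by -0.33 (adjusted p = 0.492) and Igf2bp1, which binds Igf2 mRNA, by -0.11 (adjusted p = 0.721), both in limma. The list had 9 lower and 3 higher means, with a median of -0.23. At an unadjusted p below 0.05 in limma 5 were lower and 1 higher, 50% of those tested, against 18% of all genes. Igfbp5, among the 5, was above background in no tNT line. It entered the test through the NT lines, so its share of that count is no support.

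Of 20 genes of imprint maintenance and DNA methylation 11 were tested and none passed, with 1 lower and none higher at an unadjusted p below 0.05. That is 9.09% of the tested list, below the 18% of all genes. The gene was Dnmt3b, a de novo DNA methyltransferase, at 10.59 to 12.30 in tNT lines and 12.64 and 12.67 in NT lines, 2.74-fold lower (limma, adjusted p = 0.0946). Among tNT lines it too was highest in line 2. Uhrf1, which guides maintenance methylation, and Mbd3, of the NuRD repressor complex, differed by -0.28 and -0.34 (limma, adjusted p = 0.287 and 0.336). The maintenance methyltransferase Dnmt1 (0.07), the corepressor Trim28 (0.13) and Dppa3, which protects the maternal marks in the egg (-0.22), had adjusted p of 0.825, 0.695 and 0.814 in limma. Zfp57 had no named probe.

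Another 42 genes that have been reported as imprinted served for comparison, 16 of them tested. None passed, 1 was higher and 1 lower at an unadjusted p below 0.05 in limma, 11 had higher and 5 lower means, and the median was 0.08. The smallest p-values were those of Atp10a, a phospholipid flippase, at -1.02, the histone chaperone gene Nap1l4 at 0.28 and the survival gene Bcl2l1 at -0.48 (limma, adjusted p = 0.191, 0.215 and 0.279).

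Markers of pluripotent cells and of other cells that such cultures could hold were read in the same lines. The pluripotency gene Pou5f1 was at 12.33 ± 0.20 (SD, n = 6) in tNT and 12.55 ± 0.05 (SD, n = 2) in NT lines, and 10 of 12 naive pluripotency markers were tested. Of these, 7 had higher and 3, Pou5f1 among them, lower means in tNT lines, with a median of 0.21, and none passed. Klf4 was higher by 0.92 without overlap (limma, adjusted p = 0.161), the 1 marker at an unadjusted p below 0.05. These 10 markers deviated on average by -0.28 in tNT line 2 and by -0.22 and -0.14 in the NT lines, whereas tNT lines 1, 3, 4, 5 and 6 ranged from -0.03 to 0.14. The mean deviation of 5 tested markers of mesoderm and primitive streak, of 12 listed, was 1.17 and 1.48 in NT lines and -0.25 to 0.13 in tNT lines, and Fgf8, Lhx1 and Wnt3a were called lower. Fgf8 was above background in 1 of 6 tNT lines and Lhx1 and Wnt3a in none, so these entered the test through the NT lines and their calls are no support for a direction of the list. Mixl1, Eomes and Mesp1 of that list were at background and T had no probe. The 6 of 12 trophoblast markers tested had deviations of 0.53 and 0.60 in NT and -0.38 to 0.18 in tNT lines, with Krt8 called lower and Elf5, Eomes and Hand1 at background. The 8 of 17 fibroblast markers tested were highest in tNT line 2, at 0.42, against -0.35 to 0.12 in the other 7 lines, while Col1a2, Col3a1, Postn and Pdgfra were at background. The mean deviation of the 6 of 12 primitive endoderm markers tested lay between 0.00 and 0.21 in all lines, but its members differed in direction. The difference was -1.25 for Gata6, 0.99 for Sox7 and 0.60 for Lama1 (limma, adjusted p = 0.0576, 0.229 and 0.273), 3 of 6 at an unadjusted p below 0.05. The mean deviations of the streak and trophoblast lists were higher in NT lines, where Igf2 and Peg3 were also higher. Krt19, like Lhx1 and Wnt3a, was above background in no tNT line, so these means give no direction for the lists. Of their markers above background on every array, Gsc (-0.74), Evx1 (-0.03) and Krt8 (-1.94) were lower in tNT lines and Tfap2c (0.28) higher. The fibroblast list was highest in line 2, as were Mest and Peg10, while Snrpn was highest there among tNT lines only. The naive pluripotency list was lowest in line 2 and next lowest in the NT lines, where the paternally expressed genes were high. Their part in those results was not tested.

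**Figure D5:**
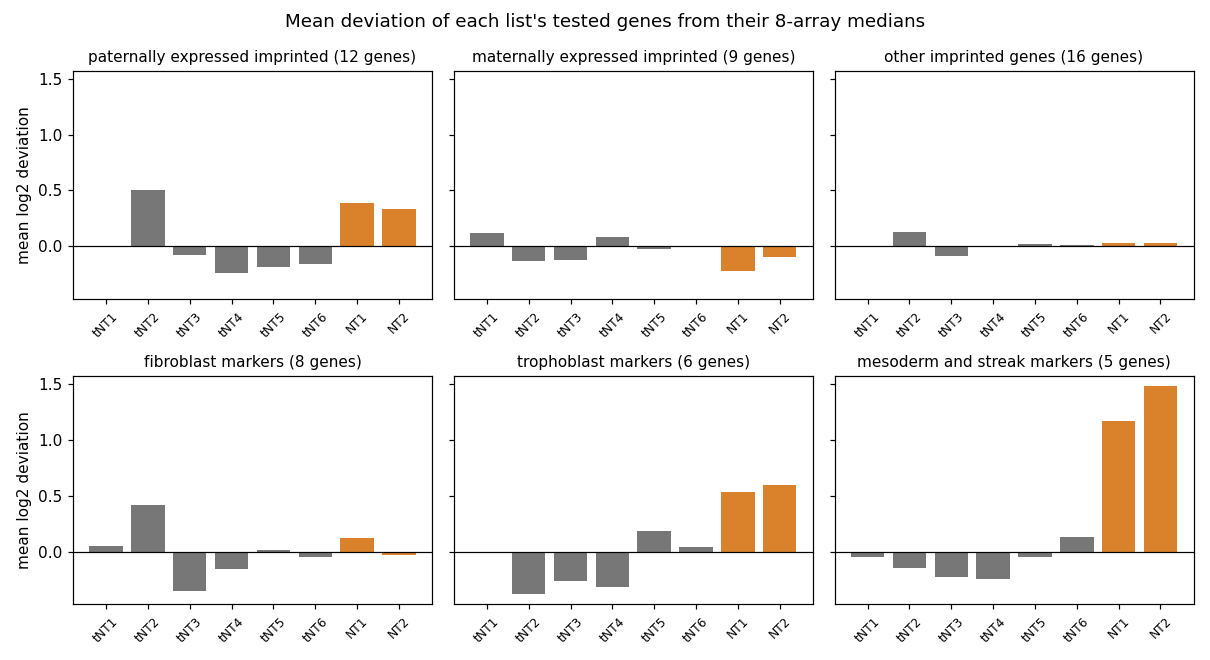
Mean deviation of each list's tested genes from their 8-array medians (vertical axis, log2) in each line (horizontal axis, tNT lines grey, NT lines orange). Paternally expressed imprinted genes are at 0.50 in tNT line 2 and at 0.39 and 0.33 in NT lines, through which Peg3 entered the test. Fibroblast markers are highest in tNT line 2. The mesoderm and streak markers are high on average in NT lines only, through which Fgf8, Lhx1 and Wnt3a entered the test.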

How the data were processed

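Biotin-labelled cRNA of 8 lines was hybridised to Illumina bead arrays. The deposited intensities are linear bead signals without background subtraction, as their values show, and each has a detection p-value next to it, per the file headers. A second table deposited by the authors holds processed log2 values of the same arrays. BeadStudio 3.2, RMA and lumi appear in the submitters' processing notes without a stated role. Columns were matched to lines by name.

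The neqc function of limma 3.58.1 (R 4.3.3) normalized the intensities, with background inferred from the detection p-values, an offset of 16 and quantile normalization, which hides any difference in RNA per cell. Of 25697 probes the platform annotation names 23978. Genes needed a probe detected (p under 0.01) on 2 or more of 8 arrays to be tested, and the brightest probe represents a gene. Groups were compared with lmFit and eBayes (2-sided), with Benjamini-Hochberg adjustment over 8816 genes and a threshold of 0.05. The fits were tested on simulated data. Genes are given without coordinates, as the array's build is not named, and sequences are RefSeq's (GRCm38.p6). No array copied another, since a pair shared at most 1 equal intensity. Other tools were Python 3.11.15, numpy 2.4.6, pandas 2.3.3 and matplotlib 3.10.9.

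The imprinted genes and the lists were chosen with earlier results of these data known. All 39 are accounted for. Values by line were given for genes past the threshold or with an unadjusted p under 0.05, the 6 most variable across tNT lines by SD, the Dlk1-Dio3 domain and the smallest p for passage in each direction. Of the other imprinted, methylation and Igf2 pathway lists, genes past the threshold or otherwise the 3 of smallest p were named, with 6 fixed by name. Igfbp5 was named for its detection. Pou5f1 and the markers named otherwise were picked with their values in view. The alternatives changed the normalization, detection filter, every probe, variance model, array weights, leaving out lines, passage range and a block by line number.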

Additional observations from a re-analysis of the deposited data

Results flagged for a closer look

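In 4 of the 22 tested imprinted genes 1 tNT line stood far from the other 5, by the gap to its nearest neighbour over the whole range (Dixon's ratio above its 95% critical value), and it was line 2 each time. The ratio was 0.799 for Snrpn, where line 2 was highest at 12.58 and the others lay between 11.89 and 12.03. It was 0.755 for Mest (9.63 in line 2, 8.02 to 8.41 in the others) and 0.755 for Peg10 (7.72 in line 2, 6.10 to 6.50 in the others). Cd81, the one maternally expressed gene among them, was lowest in line 2 at 12.68, with the others between 12.92 and 13.04, a ratio of 0.672. Chance alone gives such a gap in about 1 of 20 genes, and 7.59% of all 8816 genes had one, 4.95% through line 2.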

How the results depend on the processing

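Of the 22 tested imprinted genes 2 were called. The count was 1, Igf2, with quantile normalization without background correction (240 over all genes) and with the authors' processed values (118). It was also 1, again Igf2, with detection on all 8 arrays (121) and with no detection filter (121). It was 9 with array weights (1381 over all genes, against 164), namely Igf2, Peg3, Cd81, Gnas, Mest, Ndn, Nnat, Snrpn and Tssc4. It was 0 with the tNT lines of passage 17 to 19 (27 over all genes) and 3 with those of passage 25 to 29 (213), namely Igf2, Mest and Slc22a18, the last at 1.13 against 0.04 at passage 17 to 19. Leaving out 1 line at a time gave 0 to 5 imprinted genes and 6 to 582 over all genes, 0 without either NT line, where 1 NT array is assumed to vary like the tNT lines, and 5 without tNT line 2, namely Igf2, Peg3, Mest, Peg10 and Snrpn. In settings chosen after seeing the data, the count was 5 without tNT lines 2 and 3 (631 over all genes), 7 without lines 1 to 3 (1044) and 0 without lines 4 to 6 (50). The cause of these changes was not tested, beyond the fewer lines or genes in the fits.

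Igf2 and Peg3 were lower in tNT lines under every setting that tested them. The median of the tested paternally expressed genes stayed below 0 in all settings and was -0.06 with no detection filter, and that of the maternally expressed genes stayed above 0, at 0.02 without NT line 2, 0.04 with detection on all 8 arrays, 0.07 at passage 17 to 19 and 0.08 with no filter. For passage 0 imprinted genes were called under each of the 12 alternatives run.

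Deviations of lines with the same number in both groups had correlations of 0.0411 and 0.000173. The 2 NT lines deviate from their mean by opposite amounts, so this check cannot exclude that the numbers pair the lines. With the replicate block by line number, 2 imprinted genes were called, Igf2 and Ndn (157 over all genes). Peg3 was not called, and Slc22a18 (-0.25) and Peg10 (0.29) changed sign. Blocking by BeadChip could not be run, as no column names a chip. Genes near background, Peg3 among them, are limited by the signal over background, and all results by the 2 NT lines.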
